A study of Mus musculus with 24 samples.

Results

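Serpinh1 encodes HSP47, a chaperone of the endoplasmic reticulum (ER) that binds procollagen. In RNA sequencing of the mouse pancreatic ductal adenocarcinoma line HY19636 it was the 1 gene, of 54532 in the deposited table, that was at 10 FPKM or more in every Phgdh wild-type (WT) library and under 1 FPKM in every Phgdh knockout (KO) library. FPKM count fragments relative to gene length in kilobases and to library depth. The gene was chosen by these FPKM in KO and WT libraries, so its difference between KO and WT is given as a description with no test. Its 69 neighbours on chromosome 7, all rows with a gene start within 1 Mb of its own, were taken by position and serve as context.

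The line was Phgdh KO or Phgdh WT. Phgdh encodes phosphoglycerate dehydrogenase, the enzyme that starts serine synthesis from a glycolytic intermediate. Cells of each genotype grew in medium with serine and glycine or in medium free of both, as a monoculture or as a coculture with hepatocytes. The 8 groups were KO and WT monoculture with serine and glycine, KO and WT serine/glycine-free monoculture, KO and WT coculture with serine and glycine, and KO and WT serine/glycine-free coculture, with 3 libraries each. Whether the KO cells are 1 clone or a pool, which part of Phgdh was edited and how the cancer cells were parted from the hepatocytes are not stated in the sources at hand. Nothing says that the replicate libraries came from separate cultures, so each p-value here reflects how far libraries of a group differ, which may be a technical spread.

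HSP47 is a member of the serpin fold family that does not inhibit proteases. It recognises the folded collagen triple helix in the ER, keeps procollagen from unfolding or clumping, travels with it towards the Golgi and is brought back by KDEL receptors. Heat shock factor HSF1 raises its transcription under heat stress, Sp1-type factors bind GC-rich sites of its promoter, and in mice its loss blocks the assembly of fibrillar and basement membrane collagen. In pancreatic tumours collagen comes mostly from stellate cells and fibroblasts, and cancer cells add basement membrane chains.

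Serpinh1 (ENSMUSG00000070436) lies on the minus strand of GRCm38 at chr7:99345376-99353239, a span of 7864 bases. The deposited gene length of 2443 bases equals the summed exon length of the GENCODE vM21 model, which has 7 transcripts and 6 separate exon blocks. Where transcription of the WT gene begins was not measured, and a part of the promoter in the loss was not tested. The 250 bases before the RefSeq gene start are shown as the annotated promoter stretch. They were taken from RefSeq sequence of GRCm38.p6 for Serpinh1 and for Palm3, another gene with the same loss, and are written in the direction of transcription. Capitals mark a GC box, GGGCGG on either strand.

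Serpinh1, minus strand, chr7:99353240-99353489: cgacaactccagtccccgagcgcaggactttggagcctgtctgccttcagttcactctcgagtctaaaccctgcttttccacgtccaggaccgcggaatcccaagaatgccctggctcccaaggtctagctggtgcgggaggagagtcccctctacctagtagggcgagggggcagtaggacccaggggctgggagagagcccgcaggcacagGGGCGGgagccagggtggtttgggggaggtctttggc

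Palm3, plus strand, chr8:84021224-84021473: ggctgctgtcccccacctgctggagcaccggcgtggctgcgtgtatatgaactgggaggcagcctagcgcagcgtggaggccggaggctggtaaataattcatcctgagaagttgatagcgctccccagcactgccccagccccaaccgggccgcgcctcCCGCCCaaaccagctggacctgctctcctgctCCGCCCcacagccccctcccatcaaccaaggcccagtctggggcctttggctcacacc

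The Serpinh1 stretch held 1 GC box, whose first base lies 37 bases before the start. The Palm3 stretch held 2, starting 90 and 58 bases before its RefSeq start. The deposited start of Palm3, at base 84021471 of chromosome 8, lies within the last bases of the printed stretch. A GC box was present in 32.7% of the 32851 promoters of this length. Neither stretch held, on either strand, a CCAAT box (spelled by its name), which 33.8% of promoters held, or the TATA box letters TATAAA, which 12.4% held. Neither held the paired heat shock half-sites TTCNNGAA or, in the other orientation, GAANNTTC, which 7.17% and 6.69% of promoters held, and their absence from 250 bases says nothing of the factors that bind elsewhere. The Serpinh1 stretch was 63.6% G and C, higher than 80.0% of promoters, and held 11 CpG pairs, an observed-to-expected ratio of 0.439 that exceeded 55.4% of promoters. In GENCODE, 3 of the 7 transcripts start 125 bases further into the gene, and their own upstream bases are not shown in full.

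In 3 of the KO groups some libraries lay further from the rest of their group than others did. The median absolute log2 difference from the other libraries of the group was 0.262 for replicate 1 of the KO monoculture with serine and glycine, against 0.164 and 0.129 for its replicates 2 and 3. It was 0.144 for replicate 1 of the KO serine/glycine-free monoculture, against 0.101 and 0.0847 for its replicates 2 and 3. It was 0.175 and 0.179 for replicates 1 and 2 of the KO serine/glycine-free coculture, against 0.0831 for its replicate 3. These 4 libraries, of which 1 lay closer to its group than the 0.164 of a library that was kept, were left out together in an alternative chosen with earlier results of these data known. Serpinh1 had 0 reads in those 4 libraries and in 7 of the other 8 KO libraries, so the KO level is at or next to 0 with and without them.

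Serpinh1 was a moderately abundant transcript of the WT line. Its mean over the 12 WT libraries was 14.3 FPKM, above 71.0% of the 12061 genes that were tested for change, whose median WT mean was 6.48 FPKM. The gene was at or next to nothing in every KO library. In monoculture with serine and glycine it had 0, 0 and 0 FPKM in KO libraries, against 15.2, 14.6 and 14.3 FPKM in WT libraries. In serine/glycine-free monoculture it had 0, 0.0213 and 0 FPKM in KO libraries, against 13.5, 14.5 and 13.7 FPKM in WT libraries. In coculture with serine and glycine it had 0, 0 and 0 FPKM in KO libraries, against 13.4, 14.1 and 15.0 FPKM in WT libraries. The plot of Serpinh1 by library shows the same picture in all 4 conditions, with every KO library near the floor and the genotypes far apart. In serine/glycine-free coculture it had 0, 0 and 0 FPKM in KO libraries, against 14.7, 15.0 and 13.3 FPKM in WT libraries.

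**Figure D1:**
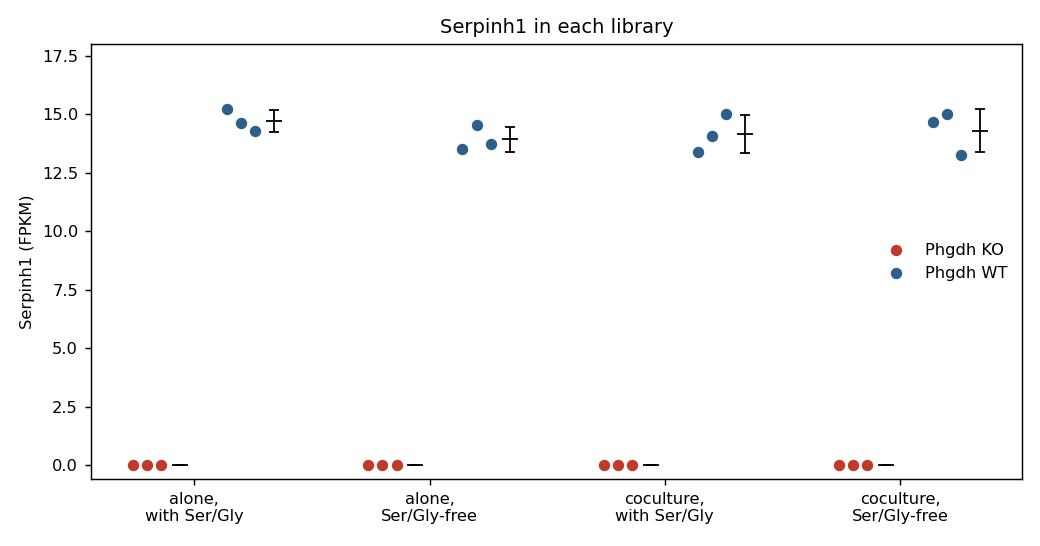
Serpinh1 in FPKM (vertical axis) for each library, with KO left of WT in each of the 4 conditions; points are libraries, bars are the mean and SD of 3 libraries. All 12 KO points lie at or under 0.0213 FPKM and all 12 WT points lie between 13.3 and 15.2 FPKM.

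Whole reads could be recovered from the deposited FPKM, and Serpinh1 had 1 read in 220552689 reads of the 12 KO libraries, against 7725 reads in 216412167 reads of the 12 WT libraries. The single KO read was in replicate 2 of the serine/glycine-free monoculture. Scaled to the library totals, the KO level was 0.0127% of the WT level, with an exact 95% interval of 0.000322% to 0.0708% that covers counting error only. In single KO libraries 3 reads, the limit that a count of 0 allows, would correspond to 0.0505 to 0.0770 FPKM.

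By condition, KO libraries held 0 reads and WT libraries 1977 reads in monoculture with serine and glycine, at least 765-fold lower in KO, scaled to library totals, when the KO group is set to 3 reads in all. In coculture with serine and glycine the reads were 0 in KO and 1920 in WT, at least 619-fold lower in KO. In serine/glycine-free coculture they were 0 in KO and 1896 in WT, at least 615-fold lower in KO. In serine/glycine-free monoculture they were 1 in KO and 1932 in WT, and the KO level was 0.0528% of the WT level (exact 95% interval 0.00134% to 0.294%). So the KO line was without a measurable Serpinh1 level with and without serine and glycine and with and without hepatocytes. In bulk RNA, fewer cells that express a gene and less RNA per cell cannot be told apart.

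Among WT libraries, Serpinh1 was steady. The group means were 14.7 ± 0.473 FPKM in monoculture with serine and glycine, 14.3 ± 0.927 in serine/glycine-free coculture, 14.2 ± 0.825 in coculture with serine and glycine and 13.9 ± 0.529 in serine/glycine-free monoculture (SD, n = 3 each), and the libraries of neighbouring groups in this order overlapped. Over the 12 WT libraries the coefficient of variation was 4.74%, where counting error alone at their mean depth gives 3.94%. The median was 9.47% among the 3981 tested genes with a WT mean within 2-fold of it, of which 6.30% varied less.

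Whether the WT cells changed Serpinh1 with medium or hepatocytes was tested with limma on log2(FPKM + 1) over all 12061 genes, with Benjamini-Hochberg adjustment. Withdrawal of serine and glycine moved it by -0.07 ± 0.05 (SE) in monoculture (limma adjusted p = 0.657), in a comparison where 1.63% of all genes passed an adjusted p of 0.05. In coculture withdrawal moved it by 0.01 ± 0.05 (limma adjusted p = 0.982; 0.738% of genes passed). Coculture against monoculture moved it by -0.05 ± 0.05 with serine and glycine (limma adjusted p = 0.489; 31.2% of genes passed). It moved it by 0.03 ± 0.05 without them (limma adjusted p = 0.692; 28.1% of genes passed). The 95% intervals of these 4 differences ran from -0.18 to 0.04, from -0.10 to 0.12, from -0.16 to 0.06 and from -0.08 to 0.14 on the log2 scale. The withdrawal effects in coculture and monoculture differed by 0.09 ± 0.07 (limma adjusted p = 0.688; 1.67% of genes passed). No WT difference passed the test, and these intervals bound how large one could be.

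The next question was whether Serpinh1 was lost alone or with its region. Both sides of the gene were transcribed in the KO line. The nearest gene, Map6 (microtubule-associated protein 6), ends 8238 bases from Serpinh1 and had 4291 reads over the 12 KO libraries and 6572 over the 12 WT libraries. On the other side Gdpd5, a glycerophosphodiesterase gene, starts 28174 bases away and had 247 reads in KO and 197 reads in WT, with reads in all 12 libraries of each genotype. Gdpd5 is weakly transcribed, with a mean of 0.166 FPKM in KO and 0.132 FPKM in WT, under the limit for testing. Further out, Klhl35 had 38 reads in KO and 16 in WT, and the ribosomal protein gene Rps3, 124656 bases away, had a mean of 303 FPKM in KO and 351 FPKM in WT.

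Of the 69 neighbours, 29 are annotated as protein-coding. The 16 that reached 1 FPKM in at least 3 of the 24 libraries, 8 on each side and 15 of them protein-coding, were tested. Of these, 15 had reads in all 12 KO libraries, and Mogat2 had reads in 11. Their mean over the 12 KO libraries lay between 52.7% and 188% of that over the 12 WT libraries, whereas Serpinh1 was at 0.0124% on the same FPKM scale. These means pool the 4 conditions, and single conditions went lower. In serine/glycine-free monoculture Mogat2 averaged 0.0301 FPKM in KO and 1.07 FPKM in WT. Of the 53 rows that were not tested, 26 had no read in any library and the highest mean was 0.504 FPKM in KO and 0.460 FPKM in WT. Just 1 of the untested rows had reads in WT and none in KO, with 3 WT reads, and 5 had reads in KO and none in WT.

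**Figure D2:**
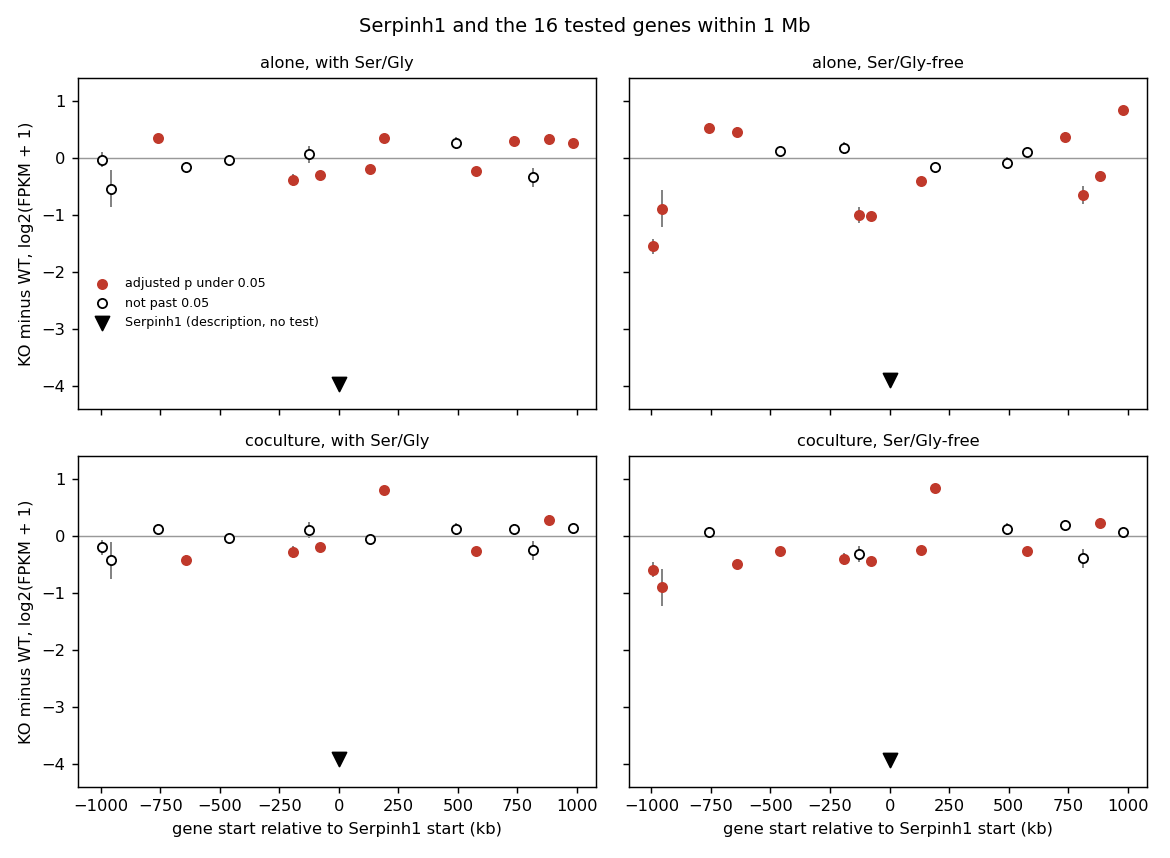
KO minus WT difference in log2(FPKM + 1) (vertical axis) against the distance of the gene start from the Serpinh1 start in kb, in the 4 conditions; filled points passed an adjusted p of 0.05, open points did not, and bars are SE. Serpinh1 (triangle) lies between -3.97 and -3.89, values set by its WT level and the pseudocount of 1. The tested neighbour that lies lowest on this scale is Tsku, at -1.54 in serine/glycine-free monoculture. The pseudocount compresses genes of low FPKM such as Mogat2, at -0.995 there.

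In the fit of all 24 libraries the neighbours differed between genotypes about as often as other genes did. In monoculture with serine and glycine 9 of the 16 passed the test, 5 higher and 4 lower in KO, where 42.7% of all tested genes passed (21.5% higher and 21.1% lower). In serine/glycine-free monoculture 11 passed, 4 higher and 7 lower, where 73.6% of all genes passed (37.4% higher and 36.3% lower). In coculture with serine and glycine 6 passed, 2 higher and 4 lower, where 43.9% of all genes passed (21.8% higher and 22.0% lower). In serine/glycine-free coculture 10 passed, 2 higher and 8 lower, where 53.6% of all genes passed (26.3% higher and 27.4% lower). Fitting the 2 groups of the first comparison alone cut its count to 4. Leaving out WT replicate 1 of the coculture with serine and glycine cut that count to 3. Without the 4 KO libraries left out together the counts were 12 and 15 in monoculture with and without serine and glycine. The count was then 8 in coculture with serine and glycine. That fit kept a lone KO library in serine/glycine-free coculture, so no count is given there. The shares of all tested genes that passed in these refits are not given here, so the refit counts cannot be set against the shares above. The neighbours' median differences were -0.02, -0.12, -0.04 and -0.26 in the 4 conditions in this order, and those of all tested genes lay between -0.01 and 0.00.

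Map6 was the 1 tested neighbour called in the same direction in all 4 conditions, as 15.9% of all tested genes were. Its protein binds and stabilises microtubules. In monoculture with serine and glycine it had 2.31, 2.19 and 2.51 FPKM in KO, against 3.09, 3.08 and 3.14 FPKM in WT (-0.30 ± 0.07 SE, limma adjusted p = 0.00151). In serine/glycine-free monoculture it had 0.895, 1.21 and 0.986 FPKM in KO, against 2.95, 3.13 and 3.16 FPKM in WT (-1.01 ± 0.07). In coculture with serine and glycine it had 2.89, 2.59 and 3.13 FPKM in KO, against 3.34, 3.55 and 3.28 FPKM in WT (-0.18 ± 0.07, limma adjusted p = 0.0364). This call was lost in 9 alternative fits. In serine/glycine-free coculture it had 2.33, 2.16 and 2.26 FPKM in KO, against 3.79, 3.12 and 3.22 FPKM in WT (-0.43 ± 0.07). The groups did not overlap in any condition, yet Map6 was transcribed in all 12 KO libraries, at 0.895 FPKM or more.

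Every call among Dgat2, Mogat2, Uvrag and Rps3 was lower in KO. Dgat2, which makes triglycerides, fell by 0.38 in monoculture with serine and glycine, by 0.27 in coculture with serine and glycine and by 0.40 in serine/glycine-free coculture on the log2 scale. The middle call was lost in 9 alternative fits. Without the 4 KO libraries left out together, which keeps a lone KO library in serine/glycine-free coculture, the last difference was -0.29. Mogat2, a monoacylglycerol acyltransferase, averaged 0.0301 FPKM in KO and 1.07 FPKM in WT in serine/glycine-free monoculture (-0.995 ± 0.14 SE). In the other conditions Mogat2 averaged 1.41, 1.18 and 0.632 FPKM in KO and 1.29, 1.02 and 1.02 FPKM in WT, and none of these 3 differences passed the test. Uvrag, an autophagy and endosome factor, passed in 1 condition, serine/glycine-free coculture, at -0.27 ± 0.08. Rps3 was lower in KO by 0.19, 0.40 and 0.25 on the log2 scale in all conditions but coculture with serine and glycine, the first of these calls being lost when just its own groups were fitted.

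Beyond Rps3, Arrb1 encodes a beta-arrestin that adapts and silences receptors. It averaged 13.9 and 11.7 FPKM in KO, against 7.50 and 6.12 FPKM in WT, in coculture with and without serine and glycine (0.82 ± 0.07 and 0.84 ± 0.07 SE). Arrb1 was far lower in monoculture. With serine and glycine it averaged 0.416 FPKM in KO and 0.107 FPKM in WT there (0.35 ± 0.07, also passing the test). Without them it averaged 0.0478 FPKM in KO and 0.161 FPKM in WT, without overlap, and did not pass. Spcs2, a subunit of the signal peptidase that trims proteins entering the ER, averaged 59.5, 43.4, 50.5 and 50.6 FPKM in KO and 49.0, 46.1, 45.9 and 45.9 FPKM in WT and passed in no condition. Rnf169, a DNA repair ubiquitin ligase, was lower in KO in all conditions but serine/glycine-free monoculture, by 0.22, 0.27 and 0.26 on the log2 scale. The first call was lost when just its own groups were fitted. Without the 4 KO libraries left out together, which keeps a lone KO library in serine/glycine-free coculture, the last difference was -0.17. At the edge of the window the secreted protein gene Tsku fell by 1.54 in serine/glycine-free monoculture and by 0.59 in serine/glycine-free coculture. P4ha3, a collagen prolyl hydroxylase gene and the 1 other collagen gene of the window, did not reach the limit for testing.

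Serpinh1 was the 1 gene of chromosome 7 at 1 FPKM or more in all WT libraries and under 0.1 FPKM in all KO libraries. Wtip, on the same chromosome, ranged from 0 to 0.537 FPKM in KO, against 3.88 to 6.59 FPKM in WT. The 868 other tested genes of the chromosome had median differences between KO and WT of -0.15, -0.20, -0.08 and -0.20 in the 4 conditions, and the lowest single difference was -4.66, in serine/glycine-free monoculture. The medians of 20 chromosomes, Serpinh1 left out, ran from -0.35 to 0.21, from -0.27 to 0.31, from -0.39 to 0.23 and from -0.27 to 0.25, with chromosome X lowest in each. Chromosome 7 ranked 4, 3, 6 and 3 from the lowest.

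Across the genome, such a clean loss was rare. Of 9680 genes at 1 FPKM or more in all 12 WT libraries, 3 were under 0.1 FPKM in all 12 KO libraries, which is 0.031%, and Serpinh1 was the most abundant of them. Of the 3963 genes at 10 FPKM or more in all WT libraries, 1 was under 1 FPKM in all KO libraries, which is 0.0252% and is Serpinh1. The mirror pattern, 10 FPKM or more in all KO and under 1 FPKM in all WT libraries, held for 0 of 3327 genes. These counts use the values by which Serpinh1 was chosen and are a description.

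**Figure D3:**
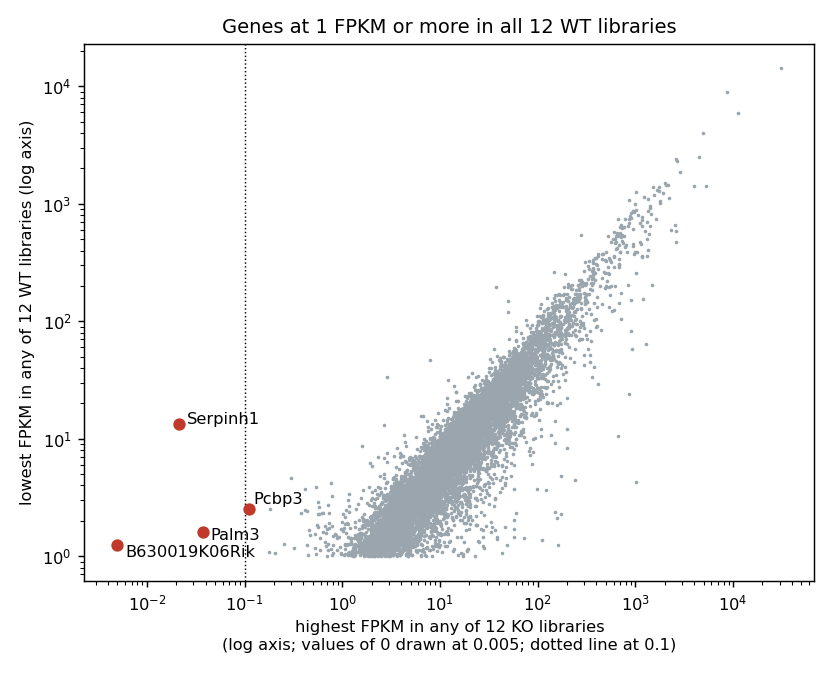
Lowest FPKM in the 12 WT libraries (vertical, log axis) against the highest FPKM in the 12 KO libraries (horizontal, log axis, 0 drawn at 0.005) for the 9680 genes at 1 FPKM or more in every WT library; each point is a gene. Serpinh1, at 13.3 against 0.0213 FPKM, lies far above Palm3 and B630019K06Rik, the other genes left of the line at 0.1 FPKM.

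The other 2 genes of this kind lie on other chromosomes. Palm3, a paralemmin family gene of chromosome 8, had 7 reads over the KO libraries and 2041 over the WT libraries, with a KO maximum of 0.0374 FPKM and a WT range of 1.61 to 3.72 FPKM. B630019K06Rik, a protein-coding gene of chromosome X, had 0 reads in KO and 870 reads in WT, where it ranged from 1.24 to 2.02 FPKM. Just outside the limit were Pcbp3, an RNA-binding protein gene with a KO maximum of 0.111 FPKM, and Ebf4, with 0.177 FPKM.

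The opposite pattern was found for 11 of 8925 genes, at 1 FPKM or more in all KO libraries and under 0.1 FPKM in all WT libraries. By mean level in KO these were led by the neural transcription factor gene Zic2 (4.67 FPKM in KO, no read in WT), N-cadherin gene Cdh2 (4.12 FPKM in KO, 0.00510 FPKM in WT), Armcx3 (3.97 FPKM in KO, no read in WT), the antisense gene Gm42982 (3.90 FPKM in KO, 0.00648 FPKM in WT), the atypical protein kinase gene Prkcz (3.87 FPKM in KO, 0.00485 FPKM in WT) and the mesenchymal transcription factor gene Twist1 (2.47 FPKM in KO, no read in WT). On chromosome 7 there was 1 gene silent in KO, Serpinh1, and 0 silent in WT. So the genotypes differed by on-off genes in both directions, on several chromosomes, and Serpinh1 was the strongest of those absent from KO by its WT level.

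The genes whose levels followed Serpinh1 most closely were ranked by Pearson's r of log2(FPKM + 1) over the 24 libraries. The 8 highest values were 0.995 for the connexin gene Gjc1, 0.995 for the protocadherin gene Pcdhb16, 0.993 for Pcbp3, 0.990 for the zinc finger gene Zfp629, 0.989 for B630019K06Rik, 0.987 for Wtip, 0.985 for Tmem64 and 0.985 for the T-box gene Tbx15. Since Serpinh1 takes 2 values in effect, r measures how well a gene parts KO from WT with little spread inside each genotype. Gjc1 ranged from 0.110 to 0.432 FPKM in KO and from 2.42 to 3.33 FPKM in WT. Tmem64, by contrast, kept 2.22 to 3.41 FPKM in KO, against 7.19 to 8.94 FPKM in WT, so none of the 8 pairs a loss as complete with a WT level as high as that of Serpinh1. Zfp629 and Wtip are on chromosome 7 and the other 6 are not.

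Phgdh itself, the targeted gene, was lower in KO but far from absent. In monoculture with serine and glycine it had 372, 548 and 529 FPKM in KO, against 934, 929 and 903 FPKM in WT (-0.95 ± 0.12 SE, limma adjusted p = 1.85e-06). It fell by 0.57 in coculture with serine and glycine and by 0.88 in serine/glycine-free coculture. In serine/glycine-free monoculture it had 616, 732 and 737 FPKM in KO, against 789, 818 and 794 FPKM in WT, and the difference of -0.21 ± 0.12 did not pass (limma adjusted p = 0.115). Since the edited part of Phgdh is not known here, its RNA level is no check of the edit.

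Markers of hepatocytes, of stellate cells and fibroblasts and of endothelial cells were low in both genotypes, and 2 macrophage markers were not. The summed level of 12 hepatocyte markers was at most 1.04 FPKM in KO libraries and 1.04 FPKM in WT libraries, cocultures included. Of 12 stellate cell and fibroblast markers, cells rich in HSP47, 10 in KO monocultures and 11 in each other set of libraries stayed under 0.1 FPKM, and their sum was 0.347 to 2.58 FPKM in KO and 1.09 to 2.02 FPKM in WT. Pdgfra alone had 0.233 to 2.54 FPKM in KO and 1.06 to 1.95 FPKM in WT. Dcn, Lum and Col3a1 were at 0 in every WT library. Of the ductal and tumour epithelial markers, 8 of 10 averaged 1 FPKM or more in every set of libraries. Epcam reached at most 1.30 FPKM in KO and 0.949 FPKM in WT, and Cldn4 0.0345 and 0.0314 FPKM. Muc1 ranged from 0.731 to 21.4 FPKM in KO and from 36.1 to 69.8 FPKM in WT. Sox9 ranged from 5.29 to 58.0 FPKM in KO and from 2.05 to 3.98 FPKM in WT. Krt18 was also higher in KO without overlap, and the ranges of the other markers overlapped. The 6 endothelial markers summed to 0.163 to 1.54 FPKM in KO and 0 to 0.0876 FPKM in WT. The 7 macrophage markers summed to 2.08 to 8.93 FPKM in KO and 13.7 to 29.1 FPKM in WT. In every library of a set 4 or more of them were under 0.1 FPKM. Cd68 ranged from 0.496 to 4.86 FPKM in KO and from 6.80 to 9.67 FPKM in WT. Cd14 ranged from 1.59 to 4.65 FPKM in KO and from 5.42 to 22.2 FPKM in WT. The part of these lists in the Serpinh1 difference was not tested.

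The collagen chains that HSP47 serves were a small set in these cells. Of 44 collagen chain genes 9 reached the limit for testing. The fibrillar chains for which HSP47 is best known were at or near 0: the highest library of Col1a1 had 0.0596 FPKM in KO and 0.0855 FPKM in WT, that of Col1a2 had 0 FPKM in KO and 0.0131 FPKM in WT, and Col3a1 had no read in either. With serine and glycine in monoculture 1 of the 9 rose and 3 fell in KO, in serine/glycine-free monoculture 3 rose and 5 fell, and in coculture with and without serine and glycine 1 rose and 3 fell. The list medians were -0.12, -0.70, -0.21 and -0.17. Beside background shares of 42.7%, 73.6%, 43.9% and 53.6%, 4, 8, 4 and 4 of the 9 passed. For this list and the later ones, 21.5%, 37.4%, 21.8% and 26.3% of all tested genes passed as higher in KO. The shares that passed as lower in KO were 21.1%, 36.3%, 22.0% and 27.4%.

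The basement membrane chains Col4a1 and Col4a2, direct partners in the collagen IV helix, passed the test in 1 of the 4 conditions. With serine and glycine in monoculture Col4a1 had 17.6, 27.4 and 27.0 FPKM in KO, against 28.1, 27.0 and 27.5 FPKM in WT. In coculture with serine and glycine it had 30.2, 31.0 and 31.6 FPKM in KO, against 26.1, 27.3 and 26.5 FPKM in WT, and in serine/glycine-free coculture 34.6, 24.7 and 29.6 FPKM in KO, against 29.4, 28.9 and 29.2 FPKM in WT. The KO libraries lay above the WT libraries without overlap in coculture with serine and glycine, and the groups overlapped in the other 2 conditions. In the same order Col4a2 averaged 15.1, 18.3 and 17.8 FPKM in KO and 14.6, 15.6 and 16.9 FPKM in WT, also without overlap in coculture with serine and glycine. These differences did not pass the test, which does not show equal levels. In serine/glycine-free monoculture Col4a1 had 13.0, 13.8 and 12.4 FPKM in KO, against 31.1, 30.1 and 30.7 FPKM in WT, a difference of -1.17 ± 0.12 SE (limma adjusted p = 2.62e-08), and Col4a2 moved by -1.15 ± 0.10.

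Col18a1, the basement membrane chain that yields endostatin, was higher in KO in all 4 conditions. It had 17.0, 33.2 and 33.1 FPKM in KO, against 15.2, 15.5 and 15.4 FPKM in WT, in monoculture with serine and glycine, and averaged 57.6 FPKM in KO and 19.3 FPKM in WT in serine/glycine-free coculture. The log2 differences were 0.75, 1.14, 0.99 and 1.496 (± 0.18 SE each). The first of these calls was lost when just its own 2 groups were fitted. Col5a1, a fibril-starting chain, was lower in KO in all 4, at -0.35, -0.70, -0.33 and -0.72 (± 0.13 SE each), of which the calls at -0.35 and -0.33 were lost in 6 and 8 alternative fits. Col6a2 fell by 0.62, 0.98, 0.56 and 0.69 on the log2 scale.

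**Figure D4:**
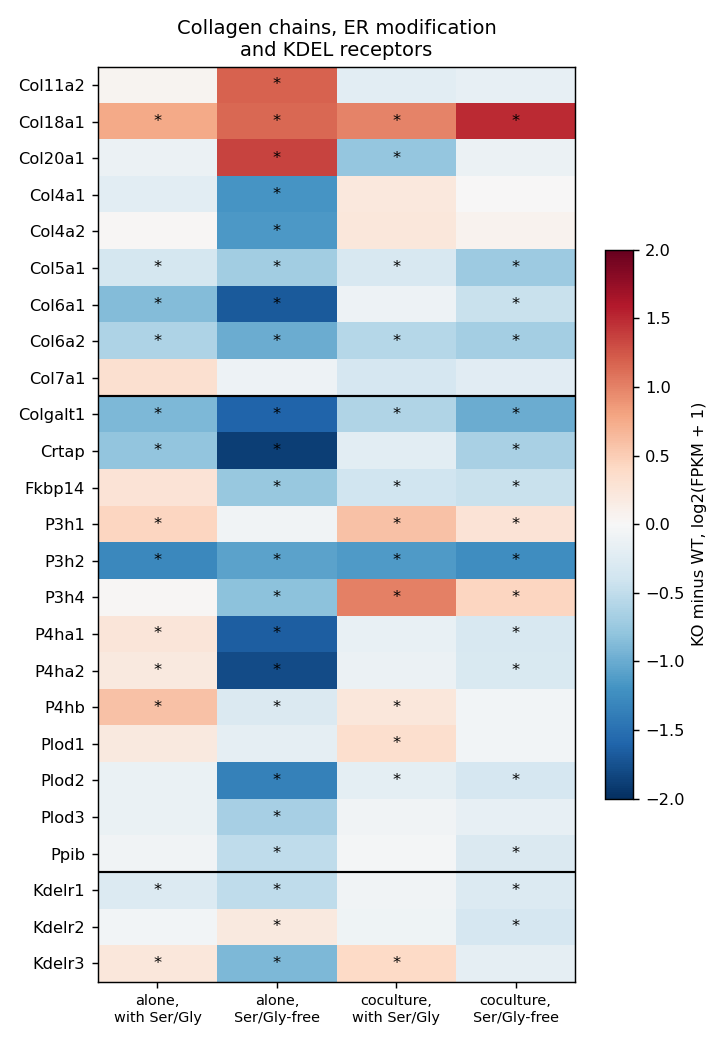
KO minus WT difference in log2(FPKM + 1) (colour, -2 to 2) in the 4 conditions (columns) for the tested collagen chains, ER modification genes and KDEL receptors (row blocks from top to bottom); an asterisk marks an adjusted p under 0.05. Col18a1 is higher in KO in every column, P3h2 and Colgalt1 are lower in every column, and most ER modification genes are lower in KO in serine/glycine-free monoculture.

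The enzymes that act on procollagen beside HSP47 in the ER were mostly transcribed in both genotypes. Of 17 such genes 13 were tested. In KO, 4 rose and 3 fell in monoculture with serine and glycine, 0 rose and 11 fell in serine/glycine-free monoculture, 4 rose and 4 fell in coculture with serine and glycine, and 2 rose and 8 fell in serine/glycine-free coculture. That is 7, 11, 8 and 10 of the 13, where 42.7%, 73.6%, 43.9% and 53.6% of all tested genes passed. The list medians were 0.03, -0.83, -0.12 and -0.31. P3h2, a prolyl 3-hydroxylase active on basement membrane collagen, fell by 1.29, 1.07, 1.13 and 1.24 on the log2 scale. Colgalt1, which adds galactose to hydroxylysine of collagen, had 27.9, 26.8 and 28.2 FPKM in KO, against 51.6, 52.3 and 53.7 FPKM in WT, in monoculture with serine and glycine, and fell by 0.90, 1.60, 0.60 and 0.99 on the log2 scale.

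Crtap, the partner of prolyl 3-hydroxylase 1, fell by 0.78, 1.88 and 0.65 in all conditions but coculture with serine and glycine, where it averaged 39.8 FPKM in KO and 46.4 FPKM in WT. P4hb, the prolyl 4-hydroxylase beta subunit and protein disulfide isomerase, averaged 596 FPKM in KO and 398 FPKM in WT in monoculture with serine and glycine (0.58 ± 0.04 SE). It moved by -0.29 ± 0.04 in serine/glycine-free monoculture, where the call was lost after quantile normalization. P4ha2, a catalytic subunit of the same enzyme, moved by 0.20 ± 0.07 in monoculture with serine and glycine, a call lost in 3 alternative fits, and averaged 0.807 FPKM in KO and 5.28 FPKM in WT in serine/glycine-free monoculture (-1.80 ± 0.07).

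For the steps after the ER, 16 of 25 genes of export, return, processing and cross-linking were tested. In the 4 conditions 5, 7, 4 and 4 rose and 3, 8, 2 and 5 fell in KO. This makes 8, 15, 6 and 9 of the 16, where 42.7%, 73.6%, 43.9% and 53.6% of all tested genes passed, and the list medians were 0.04, -0.03, -0.06 and -0.03. The KDEL receptor gene Kdelr2, whose product returns HSP47 to the ER, averaged 57.4, 64.8, 64.0 and 53.9 FPKM in KO and 59.7, 56.3, 68.0 and 68.4 FPKM in WT. It passed in both serine/glycine-free conditions, at 0.20 ± 0.05 in monoculture and -0.34 ± 0.05 in coculture, and the first value was -0.065 after quantile normalization, no longer past the threshold, as it was not with voom. Loxl2, a collagen cross-linking oxidase, averaged 2.37 and 1.85 FPKM in KO and 13.9 and 12.4 FPKM in WT in coculture with and without serine and glycine (-2.13 ± 0.10 and -2.25 ± 0.10). Bmp1, a procollagen C-proteinase, was lower in KO in all 4, by 0.44, 0.80, 0.39 and 0.27. Without the 4 KO libraries left out together, which keeps a lone KO library in serine/glycine-free coculture, the last difference was -0.25.

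A list of 12 genes known to act on Serpinh1 transcription had 10 that were tested. Of these 4, 6, 2 and 6 rose and 3, 2, 3 and 2 fell in KO in the 4 conditions. So 7, 8, 5 and 8 of the 10 passed, where 42.7%, 73.6%, 43.9% and 53.6% of all tested genes passed, with list medians of 0.15, 0.46, 0.04 and 0.32. Hsf1 had 7.97, 8.92 and 9.29 FPKM in KO, against 7.08, 6.21 and 6.33 FPKM in WT, in monoculture with serine and glycine, a difference of 0.37 ± 0.08 SE, and was 0.56 ± 0.08 higher in serine/glycine-free monoculture. It averaged 5.78 and 5.51 FPKM in KO and 5.03 and 5.92 FPKM in WT in the cocultures, which did not pass. Smad3, a transducer of TGF-beta signals, was higher in KO by 0.47, 0.73, 0.99 and 1.25. The receptor gene Tgfbr2 was lower by 0.31, 1.38, 0.53 and 0.48. Tgfb1 had 43.6, 41.5 and 41.9 FPKM in KO, against 21.2, 19.9 and 23.3 FPKM in WT, in coculture with serine and glycine. Its groups overlapped in both monocultures. Tgfbr1 had 17.8, 13.8 and 15.0 FPKM in KO, against 6.64, 6.88 and 6.98 FPKM in WT, in serine/glycine-free monoculture. Its groups overlapped in coculture with serine and glycine.

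Of 22 heat shock genes 20 were tested, and 9, 9, 5 and 4 rose and 0, 7, 3 and 6 fell in KO. The 9, 16, 8 and 10 that passed, of 20, lie near the either-direction shares of 42.7%, 73.6%, 43.9% and 53.6% over all tested genes. In monoculture with serine and glycine all 9 rose, where 21.5% of all tested genes were higher and 21.1% lower in KO. The list medians were 0.15, 0.13, -0.03 and 0.01. Stip1, an Hsp70-Hsp90 adaptor, rose in all 4, by 2.08 ± 0.04 in serine/glycine-free monoculture, though its calls in coculture were lost in 1 or more alternatives: with serine and glycine (0.14) after quantile normalization or without KO replicate 1, and without them (0.18) when just its own groups were fitted. Dnaja1, an Hsp70 co-chaperone, rose by 0.69, 1.31, 0.39 and 0.43. Hspa8, ranked first in the list by mean absolute log2 difference, went the other way. In serine/glycine-free monoculture it had 273, 243 and 246 FPKM in KO, against 1521, 1539 and 1498 FPKM in WT. It was also lower in KO without overlap in both cocultures, and its groups overlapped in monoculture with serine and glycine. All 20 general ER chaperone and unfolded protein response genes were tested, and 6, 3, 3 and 2 rose and 3, 17, 7 and 11 fell in KO. In all 9, 20, 10 and 13 of the 20 passed, where 42.7%, 73.6%, 43.9% and 53.6% of all tested genes passed, with list medians of 0.06, -0.45, -0.11 and -0.17. By mean absolute log2 difference this list was led by Eif2ak3, Sdf2l1, Hyou1 and Ern1. Eif2ak3 and Hyou1 were lower and Ern1 was higher in KO in all 4 conditions, without overlap. Sdf2l1 was lower without overlap in the serine/glycine-free conditions, and its groups overlapped in the others. Hspa5 is the ER Hsp70 that binds unfolded chains of every kind. It averaged 1556 FPKM in KO and 1296 FPKM in WT in monoculture with serine and glycine (0.26 ± 0.07). It moved by -0.32 and -0.24 in the serine/glycine-free monoculture and coculture. The call at 0.26 was lost when just its own groups were fitted and that at -0.32 after quantile normalization.

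Among the serpins, Serpinh1 was not the only gene that differed. Of 67 other serpin genes 8 were tested, and 2, 2, 3 and 3 rose and 5, 4, 5 and 5 fell in KO. Thus 7, 6, 8 and 8 of the 8 passed, where 42.7%, 73.6%, 43.9% and 53.6% of all tested genes passed, with list medians of -0.21, -0.60, -0.52 and -0.45. Serpinb6b had 49.7, 37.8 and 39.7 FPKM in KO, against 156, 163 and 160 FPKM in WT, in monoculture with serine and glycine (-1.90 ± 0.12 SE). It fell by 5.22 in serine/glycine-free monoculture. The granzyme B inhibitor gene Serpinb9 and its paralogue Serpinb9b fell in all 4 conditions, by 1.29, 3.58, 2.08 and 2.04 and by 0.81, 3.16, 1.30 and 1.75. Serpinb6a was higher in KO in all 4. The clade B genes are alike in sequence, so reads may be split among them, and these 3 that fell still averaged at least 0.199 FPKM in each KO group.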

How the data were processed

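RNA sequencing of 24 libraries (8 groups of 3) was analysed. Per the submitters' processing notes, reads were aligned with HISAT2 to GRCm38 (mm10); versions, counter and use of strand are not stated there. The authors deposited FPKM per gene, with gene lengths and positions, in a table with 0 columns of other samples. Multiplying FPKM by the deposited gene length gave multiples of a fixed step per library (100% within 0.01 read), and hence reads per gene and totals of 15740081 to 23479425. Each library had been scaled by 0.969 to 1.068 times its own total, for a reason not given. There were 0 identical pairs of libraries, and replicates differed by more than sampling noise (chi-square per degree of freedom 2.99 to 65.72 for genes with 20 or more reads).

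Genes at 1 FPKM or more in at least 3 libraries (12061) were tested as log2(FPKM + 1), computed from the deposited FPKM, with limma 3.58.1 in R 4.3.3 (8 group means, mean-variance trend, 16 residual degrees of freedom, two-sided). P-values were adjusted after Benjamini and Hochberg over all 12061 genes and called under 0.05. Log2 differences understate changes of genes with low FPKM. The fit was also run on simulated data with known changes, whose outcome is not given here. Far fewer genes were changed there than differed in these data, so that run is not offered as support for the calls. Intervals of read ratios are exact (Clopper-Pearson, 95%). Alternatives were the pseudocount, no filter, quantile normalization, limma voom on the recovered reads, the groups of the contrast alone, a replicate block, other windows and leaving libraries out.

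Serpinh1, the gene lists and the tests were chosen with earlier results of these data known. The rule for naming took Serpinh1, Phgdh and the 4 nearest tested genes on each side. It took neighbours called in the same direction in all 4 conditions or with a called log2 difference of at least 1. From each list it took up to 4 genes by mean absolute log2 difference. It added Hsf1, Hspa5, P4hb, Kdelr2, Col4a1, Col4a2, Col5a1 and Col1a1, the 8 genes most like Serpinh1, and up to 6 on-off genes each way. Of the genes so chosen, Col6a1, Sar1b and Hsph1 are not described in the text. Gdpd5, Klhl35, P4ha3, Col1a2, Col3a1 and the genes just outside a limit were added after their values were seen.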

Additional observations from a re-analysis of the deposited data

Results flagged for a closer look

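In 6 of the genes named here from the collagen, ER and export lists, all KO libraries lay above all WT libraries in one condition and below them in another, with a call in both. Over all lists, 21 of 95 tested genes turned in this way, the others not being named in the text. The share over all tested genes is not given here, so this count cannot be read as a trait of the lists. The difference between the conditions was not tested. Values are the first KO minus WT log2 difference minus the second. They were 2.13 for Col20a1 (1.35 in serine/glycine-free monoculture and -0.78 in coculture with serine and glycine) and 1.998 for P4ha2 (0.20 in monoculture with serine and glycine and -1.80 in serine/glycine-free monoculture). The P4ha2 call at 0.20 was lost when just its own groups were fitted, without KO replicate 3 and without WT replicate 1. Hspa5 gave 0.58 (0.26 and -0.32) and P4hb 0.87 (0.58 and -0.29) in the same pair of conditions as P4ha2; the call at 0.26 was lost when just its own groups were fitted, and those at -0.32 and -0.29 after quantile normalization. Pcolce, the procollagen proteinase enhancer, gave -1.41 (-0.96 in serine/glycine-free monoculture and 0.46 in coculture with serine and glycine), and Kdelr2 gave 0.54 (0.20 in serine/glycine-free monoculture and -0.34 in serine/glycine-free coculture), with the call at 0.20 lost after quantile normalization and with voom. Serpinh1 had no such turn: it was lower in KO in every condition.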

How the results depend on the processing

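The KO level of Serpinh1 was 0.0124% of WT in FPKM and 0.0127% scaled to library totals. The 3 genes silent in KO stayed 3 with a limit of 0.05 FPKM in KO and became 1, Serpinh1, with 5 FPKM or more required in WT. Counts of called neighbours were 4, 3, 3 and 5 within 0.5 Mb and 17, 26, 16 and 26 within 2 Mb, against 9, 11, 6 and 10 within 1 Mb, with other numbers of genes tested (7 and 39 in place of 16). The first count was 4 with just its own groups fitted, where the share over all genes is not given, and the cause was not tested. Leaving out 1 library gave 9 to 11, 10 to 12, 3 to 5 and 8 to 11. The WT withdrawal effect on Serpinh1 in coculture (0.01) ran from -0.023 to 0.065 when 1 library was left out, and its coculture effect without serine and glycine (0.03) was -0.0541 with voom. Differences that changed sign had not passed the test, Kdelr2 in serine/glycine-free monoculture excepted (-0.065 after quantile normalization). Phgdh in the same condition gave 0.19 and Uvrag in coculture with serine and glycine 0.00635 after quantile normalization. Uvrag and Tsku in monoculture with serine and glycine gave 0.017 and 0.19 without the 4 KO libraries left out together, and the Tsku difference then passed the test. With 1 library left out, Uvrag ran from -0.084 to 0.021 and from -0.098 to 0.049 in those conditions, Mogat2 in the first from -0.0704 to 0.18 and Tsku there from -0.13 to 0.19. Of 167 called differences of genes chosen for naming, 146 passed under every alternative that was run. In serine/glycine-free coculture these alternatives include the fit that kept a lone KO library. Many of the genes were chosen for the size of the same KO against WT differences, and some are not described in the text. This share therefore says nothing of called genes in general.

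Replicate numbers gave little sign of pairing the libraries. Same-numbered deviations correlated above 0.1 in 1 of 24 pairs across group comparisons (-0.195 to 0.137). In 11 of these 24 the best match was the library of the same number. With serine and glycine, every WT coculture library matched the WT monoculture library of its own number best, at correlations of 0.0238 to 0.0531. With the replicate block the neighbour counts were 9, 11, 5 and 9, and the Serpinh1 WT effects kept their values. The planned count tests were not run, since the deposited unit is FPKM; voom was chosen after seeing the data. Depth limits a statement of absence to 3 reads per KO library.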
